A study of Mus musculus with 32 samples.

Results

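Plasma membrane amino acid transporters were examined as a group of 10 named genes, Slc1a3, Slc1a4, Slc1a5, Slc3a2, Slc7a1, Slc7a5, Slc7a11, Slc38a1, Slc38a2 and Slc6a9, found in the count table by gene symbol. Counts were available for 9 of the 10, out of 17757 genes counted, and Slc1a3, the glial high-affinity glutamate and aspartate transporter, was not analysed here. The cells were 4T1 cells, a mouse mammary carcinoma line, grown as spheroids for 5 days in lung-like medium, a medium made to resemble the nutrients of lung interstitial fluid. Spheroids carried a control shRNA and received 700 µM aspartate (ASP shSCR) or none (NoASP shSCR), or were depleted by shRNA of Grin2d (the ASP shGRIN2D condition) or of Dhps (the ASP shDHPS condition) and received 700 µM aspartate. Independent spheroid pellets, 4 for each of the 4 conditions, were split into a polysomal library of RNA bound by more than 3 ribosomes and a sub-polysomal library of the RNA below that, which gave 32 libraries. All cells were lentivirally transduced, puromycin-selected pools and not single clones, and the labels give a single knockdown line for each target, so an effect of the target and an effect of the hairpin used cannot be told apart.

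Amino acid transporters of the plasma membrane decide which amino acids a cell can take up and which it gives out in exchange. Slc3a2 encodes the CD98 heavy chain, a single-pass glycoprotein that brings light chains such as Slc7a5 (LAT1, large neutral amino acids) and Slc7a11 (xCT, cystine in exchange for glutamate) to the cell surface. Slc1a4 and Slc1a5 (ASCT1 and ASCT2) exchange small neutral amino acids and glutamine, Slc38a1 and Slc38a2 (SNAT1 and SNAT2) take up neutral amino acids with sodium, Slc7a1 (CAT1) carries arginine and lysine, and Slc6a9 (GLYT1) carries glycine. Several of these genes are known targets of ATF4, the transcription factor of the amino acid response. Grin2d encodes a subunit of the NMDA receptor, and Dhps the enzyme that starts hypusination of the translation factor eIF5A. The share of an mRNA in the polysomal fraction reflects how many ribosomes it carries.

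On GRCm38, the heavy chain gene Slc3a2 lies at chr19:8706882-8723369 and its light chain genes Slc7a5 and Slc7a11 at chr8:121881150-121907694 and chr3:49892526-50443614, all on the minus strand. Slc38a1 (chr15:96571418-96642913) and Slc38a2 (chr15:96687392-96699730) are close neighbours on the minus strand of the same chromosome. Slc1a4 lies at chr11:20302180-20332713 and Slc7a1 at chr5:148327410-148399904 on the minus strand, and Slc1a5 at chr7:16781340-16798274 and Slc6a9 at chr4:117834506-117875198 on the plus strand. The counts are sums over all transcripts of a gene, so exons, introns and UTRs are not told apart.

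The promoter sequences of the members were searched for the letters TGATGNAA, a form of the amino acid response element bound by ATF4 with its partners, on both strands. RefSeq promoter windows, from 250 bases before to 50 after an annotated RefSeq start on GRCm38.p6, were held for 7 members with 10 windows between them, Slc1a3 included, and none were held for Slc1a5, Slc7a5 and Slc38a1. A gene can have several such starts, and that of Slc3a2 (chr19:8713848-8714147) lies inside the gene as given above. The letters occurred in 1304 of all 32851 windows, or 3.97%. Among the members, Slc7a11 held them at 2 places, with first bases 66 and 47 bases before that start, and Slc1a4 at 1 place, 4 bases before its start. Both stretches are shown 5′ to 3′ on the minus strand, which is the coding strand of both genes, with the matching letters in capitals. A match is a run of letters and not a measured binding site.
Slc7a11 promoter, chr3:50443643-50443719: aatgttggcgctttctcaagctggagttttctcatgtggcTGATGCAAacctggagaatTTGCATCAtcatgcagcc
Slc1a4 promoter, chr11:20332700-20332757: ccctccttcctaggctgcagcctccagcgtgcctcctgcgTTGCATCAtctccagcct

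The libraries held between 12870563 and 25639437 counts each, with a median of 18168765. The counted members were well covered, with mean counts per library from 812 for Slc1a4 to 3521 for Slc7a5 and a lowest single count of 349 for Slc1a5. Each library was placed on an axis that ran from 0, the average of the sub-polysomal profiles outside its condition, to 1, the average of the polysomal profiles outside it. The sub-polysomal libraries lay between -0.114 and 0.162. Of the polysomal libraries, 15 lay between 0.777 and 1.27, but that of ASP shSCR replicate 1 lay at 0.372, so the main member results that rest on ASP shSCR are also given without this pellet. The 4 polysomal libraries numbered replicate 2 lay at 0.777 in ASP shSCR, 0.984 in NoASP shSCR, 0.841 in ASP shGRIN2D and 0.910 in ASP shDHPS, each the lowest or second lowest of its condition.

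The cells matched their label by the epithelial markers. All 8 epithelial marker genes were counted, with a summed level of 2281 to 8710 CPM (counts scaled to a common library total) per library and Krt8, a keratin of simple epithelia, as the most abundant. Of 9 blood and endothelial markers, 6 were counted, and their sum was 5.44 to 27.3 CPM, with Cd68 the most abundant. Ptprc, Cd79a, Csf1r, Pecam1 and Hba-a1 had a mean under 6 counts per library, and Cd3e, Adgre1 and Cdh5 were not analysed here. The receptor genes Esr1, Pgr and Erbb2 had been listed as genes that a triple-negative line lacks. Esr1 had a mean of 67.9 counts per library and Erbb2 one of 1642, so neither was absent, and Pgr was not analysed here. The targeted gene Dhps was higher in ASP shSCR than in ASP shDHPS by 2.01 (SE 0.16) on the log2 scale in the sub-polysomal fraction and by 1.64 (SE 0.23) in the polysomal fraction, and both passed the test (edgeR, adjusted p = 1.11e-08 and 0.0167). Grin2d, with a mean of only 65.5 counts per library, was higher in ASP shSCR than in ASP shGRIN2D by 0.88 (SE 0.29) and 1.14 (SE 0.33) but passed the test in neither fraction (edgeR, adjusted p = 0.232 and 0.263), although its pellets did not overlap in either.

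The heavy chain gene led the members in the polysomal fraction and a light chain gene led them in the sub-polysomal fraction, on the scale of CPM per kilobase of transcript. In polysomal RNA the level of Slc3a2 was 108 ± 40.1 (mean ± SD over the 16 libraries of all conditions), followed by Slc7a5 at 42.9 ± 10.5, Slc1a5 at 28.9 ± 12.1, Slc6a9 at 28.6 ± 10.0, Slc38a2 at 24.0 ± 6.33, Slc1a4 at 15.8 ± 5.70, Slc7a11 at 14.7 ± 3.80, Slc38a1 at 13.2 ± 2.14 and Slc7a1 at 8.80 ± 2.85. The gaps between Slc1a5, Slc6a9 and Slc38a2, and those between Slc1a4, Slc7a11 and Slc38a1, were smaller than the SDs of the neighbours. In sub-polysomal RNA the level of Slc7a5 was 65.1 ± 10.3, followed by Slc3a2 at 41.2 ± 6.34, Slc6a9 at 18.7 ± 4.77, Slc38a2 at 18.0 ± 3.83, Slc38a1 at 12.0 ± 1.73, Slc7a11 at 10.5 ± 2.05, Slc1a5 at 10.1 ± 2.05, Slc7a1 at 9.29 ± 1.90 and Slc1a4 at 7.03 ± 1.52. Here the neighbours Slc6a9 and Slc38a2, and the run from Slc38a1 to Slc7a1, lay closer together than their SDs. Lengths came from a GRCm38 annotation while the counts were made on GRCm39, and levels are shares of each fraction's own RNA. In such bulk libraries, fewer cells of a kind and less RNA per cell cannot be told apart.

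Next, the share of each member on polysomes was examined as a log2 ratio, polysomal over sub-polysomal. Of the 9 members, 5 were higher in polysomal RNA and 2 lower in ASP shSCR, 3 and 1 in NoASP shSCR, 5 and 1 in ASP shGRIN2D, and 4 and 1 in ASP shDHPS (edgeR, adjusted p below 0.05). Over all genes tested, 20.8%, 23.7%, 23% and 21.8% were higher in the same order of conditions, and 18.9%, 20.6%, 20.4% and 21.3% were lower. Without ASP shSCR replicate 1, 4 members were higher and 2 lower in ASP shSCR. Slc1a4, Slc1a5 and Slc3a2 were higher in every condition, as were 15% of all genes, and Slc7a5 was lower in every condition, as were 14.2%. The plot of polysomal to sub-polysomal ratios by pellet shows these 4 genes on either side of 0.

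**Figure D1:**
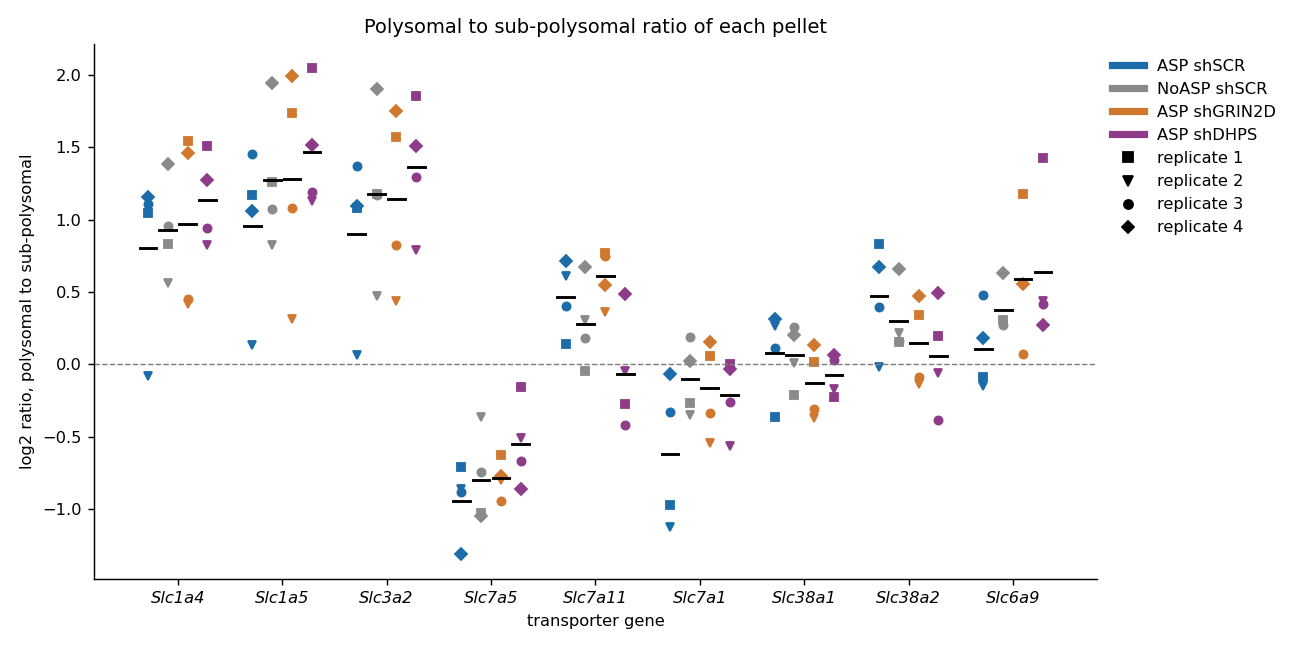
Log2 ratio, polysomal over sub-polysomal RNA (y axis, TMM-scaled counts with a prior count of 2) for each counted member and condition, with a point per spheroid pellet (colour, condition, and shape, replicate number) and a bar at the mean of 4 pellets. Slc1a5 and Slc3a2 lie above 0 in all 16 pellets and Slc7a5 lies below 0 in all 16.

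The CD98 heavy chain gene Slc3a2 made up a larger share of polysomal than of sub-polysomal RNA. In pellets 1 to 4 of ASP shSCR its level was 70.6, 87.3, 67.4 and 79.9 CPM in sub-polysomal RNA and 198, 99.3, 192 and 185 CPM in polysomal RNA. Without aspartate, Slc3a2 was at 64.5, 66.1, 70.5 and 74.8 CPM below polysomes and at 161, 102, 171 and 306 CPM on them. The corresponding values were 61.0, 65.5, 71.8 and 78.6 CPM against 203, 95.4, 139 and 287 CPM for ASP shGRIN2D, and 66.1, 79.1, 101 and 96.1 CPM against 264, 146, 277 and 306 CPM for ASP shDHPS. Pellet 2 was the lowest of each condition in polysomal RNA. These CPM values were scaled within each fraction, so the values of the 2 fractions are not on 1 scale. The fitted ratios used 1 scaling over all 32 libraries. The polysomal level of Slc3a2 was 1.88-fold the sub-polysomal level in ASP shSCR (log2 0.91, SE 0.24, adjusted p = 0.00362), 2.27-fold in NoASP shSCR (log2 1.18, SE 0.25, adjusted p = 0.000251), 2.22-fold in ASP shGRIN2D (log2 1.15, SE 0.25, adjusted p = 0.000341) and 2.58-fold in ASP shDHPS (log2 1.36, SE 0.24, adjusted p = 4.82e-05; all edgeR). Without ASP shSCR replicate 1 the log2 ratio of Slc3a2 in ASP shSCR was 0.79.

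The light chain gene Slc7a5 had the opposite distribution. Its sub-polysomal level was 277, 223, 263 and 274 CPM in ASP shSCR, 235, 170.5, 180.5 and 246 CPM in NoASP shSCR, 236, 172, 191 and 219.8 CPM in ASP shGRIN2D, and 219, 272, 216 and 267 CPM in ASP shDHPS. On polysomes Slc7a5 stood at 224, 133, 157 and 119 CPM in ASP shSCR, 127, 147, 116 and 130.2 CPM in NoASP shSCR, 171, 106, 108 and 140.0 CPM in ASP shGRIN2D, and 217, 204, 151 and 163 CPM in ASP shDHPS. These levels too were scaled within each fraction. The log2 ratio of Slc7a5, from 1 scaling over all libraries, was below 0 in each of the 16 pellets. The polysomal level of Slc7a5 was 0.521-fold the sub-polysomal level in ASP shSCR (log2 -0.94, SE 0.17, adjusted p = 9.39e-05), 0.575-fold in NoASP shSCR (log2 -0.80, SE 0.17, adjusted p = 0.000442), 0.580-fold in ASP shGRIN2D (log2 -0.78, SE 0.17, adjusted p = 0.000495) and 0.683-fold in ASP shDHPS (log2 -0.55, SE 0.17, adjusted p = 0.0112; all edgeR). The call in ASP shDHPS was lost without its replicate 3 (adjusted p = 0.0529) or 4 (adjusted p = 0.0816). Without ASP shSCR replicate 1 the log2 ratio of Slc7a5 in ASP shSCR was -1.08.

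Slc7a11, the other light chain gene, lay between the heavy chain and Slc7a5 on average. Its log2 ratios in pellets 1 to 4 were 0.14, 0.61, 0.41 and 0.71 in ASP shSCR, -0.05, 0.30, 0.19 and 0.68 in NoASP shSCR, 0.77, 0.36, 0.75 and 0.55 in ASP shGRIN2D, and -0.27, -0.05, -0.42 and 0.49 in ASP shDHPS. Slc7a11 was above 0 in 12 of the 16 pellets, and 3 of the other 4 were ASP shDHPS pellets. It was higher in polysomal RNA in ASP shGRIN2D (log2 0.61, SE 0.18, adjusted p = 0.00593) and in ASP shSCR (log2 0.47, SE 0.18, adjusted p = 0.0359), while NoASP shSCR gave 0.28 (SE 0.18, adjusted p = 0.216) and ASP shDHPS gave -0.06 (SE 0.18, adjusted p = 0.812; all edgeR). The call of Slc7a11 in ASP shSCR was lost without replicate 2 (log2 0.38, adjusted p = 0.153), 3 (log2 0.49, adjusted p = 0.0797) or 4 (log2 0.39, adjusted p = 0.170) and, with ratios of 0.39 and 0.50, with other size factors (adjusted p = 0.0764) or with no term for the pellet (adjusted p = 0.103). It held at 0.51 without replicate 1 (adjusted p = 0.0306).

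Because both fractions came from the same pellet, the genes could be compared pellet by pellet. The log2 ratio of Slc3a2 exceeded that of Slc7a5 by 1.92 ± 0.59 (SD over 16 pellets), in 16 of 16 pellets, with a range of 0.84 to 2.95 and condition means between 1.85 and 1.98. Leaving out ASP shSCR replicate 1 gave a mean of 1.92 over 15 pellets. The ratio of Slc3a2 exceeded that of Slc7a11 by 0.83 ± 0.67, in 15 of 16 pellets, with condition means from 0.44 to 1.43, and that of Slc7a11 exceeded that of Slc7a5 by 1.09 ± 0.57, in 15 of 16. These gaps were 0.82 and 1.11 without ASP shSCR replicate 1. The gene pairs compared within pellets were chosen after the values were known, so the gaps are given as a description, with no test. The plot of heavy and light chain ratios within pellets shows Slc3a2 above Slc7a5 on every line.

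**Figure D2:**
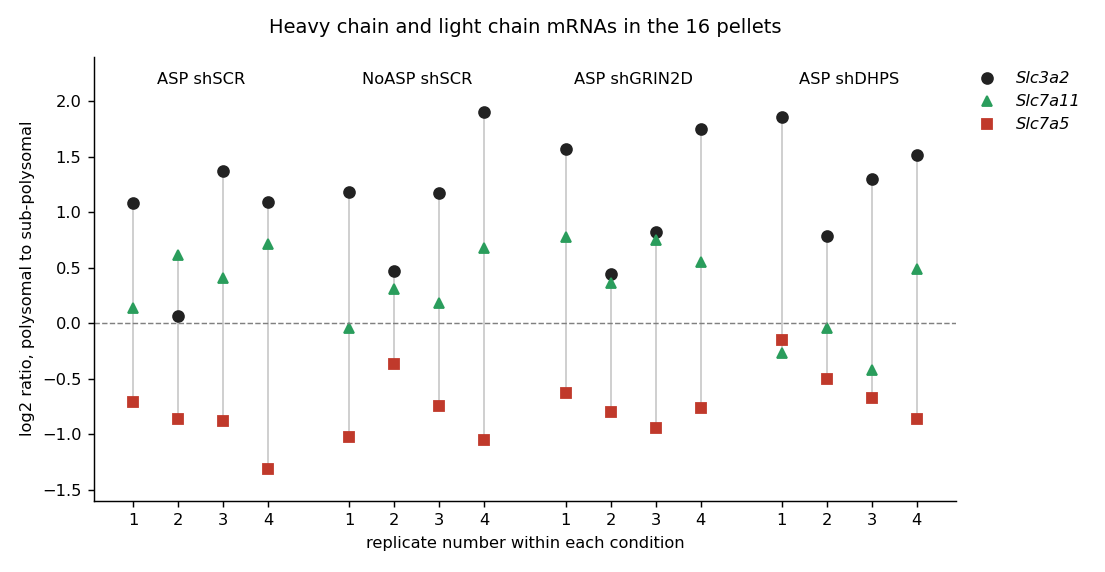
Log2 ratio, polysomal over sub-polysomal RNA (y axis), of the heavy chain gene Slc3a2 (circles) and its light chain genes Slc7a11 (triangles) and Slc7a5 (squares) in each pellet (x axis, replicate numbers by condition), with the values of a pellet joined by a vertical line. In each of the 16 pellets the Slc3a2 value lies above the Slc7a5 value, by 0.84 to 2.95.

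The neutral amino acid exchangers Slc1a4 and Slc1a5 were, like Slc3a2, higher in polysomal RNA in every condition. Sub-polysomal levels of Slc1a5 were 27.0, 21.4, 27.9 and 29.5 CPM in ASP shSCR, 32.7, 19.4, 30.5 and 29.1 CPM in NoASP shSCR, 21.8, 21.4, 24.3 and 25.9 CPM in ASP shGRIN2D, and 29.9, 28.3, 39.0 and 38.4 CPM in ASP shDHPS. Polysomal levels of Slc1a5 were 80.6, 25.4, 84.1 and 67.0 CPM in ASP shSCR, 86.5, 38.2, 69.2 and 123 CPM in NoASP shSCR, 81.7, 28.6, 56.1 and 112 CPM in ASP shGRIN2D, and 137, 66.2, 99.5 and 122 CPM in ASP shDHPS. The polysomal value of pellet 2 was the lowest in each condition. These levels were again scaled within each fraction. The polysomal level of Slc1a5 was 1.95-fold the sub-polysomal level in ASP shSCR (adjusted p = 0.00213), 2.43-fold in NoASP shSCR (adjusted p = 9.26e-05), 2.45-fold in ASP shGRIN2D (adjusted p = 9.50e-05) and 2.78-fold in ASP shDHPS (adjusted p = 1.71e-05; all edgeR). For Slc1a4 the log2 ratio was 0.82 (SE 0.22, adjusted p = 0.00394), 0.93 (SE 0.22, adjusted p = 0.000914), 0.97 (SE 0.22, adjusted p = 0.000671) and 1.14 (SE 0.22, adjusted p = 0.000115) in the same order. Slc1a4 was above 0 in 15 of 16 pellets, with ASP shSCR replicate 2 at -0.081. Within a pellet, the log2 ratio of Slc1a5 exceeded that of Slc1a4 by 0.29 ± 0.22, in 14 of 16 pellets. Without ASP shSCR replicate 1 the ASP shSCR log2 ratios were 0.67 for Slc1a4 and 0.83 for Slc1a5, and the gap between the genes over the remaining pellets was 0.30.

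The sodium-coupled transporters Slc38a1 and Slc38a2 were spread more evenly over the fractions. Log2 ratios of Slc38a1 ran from -0.37 to 0.32 with a median of 0.024 over the 16 pellets, and its ratio passed the test in no condition (edgeR, adjusted p = 0.562 to 0.797). Those of Slc38a2 ran from -0.39 to 0.83 with a median of 0.205. Its ratio passed the test in ASP shSCR (log2 0.47, SE 0.18, adjusted p = 0.0413) and not in NoASP shSCR (log2 0.30, SE 0.18, adjusted p = 0.200), ASP shGRIN2D (log2 0.15, adjusted p = 0.560) or ASP shDHPS (log2 0.06, adjusted p = 0.832; all edgeR). The ASP shSCR call of Slc38a2 was lost without the outlying replicate 1 (log2 0.29, adjusted p = 0.270) and under 5 other settings, at log2 0.39 to 0.50. The log2 ratio of Slc38a2 exceeded that of Slc38a1 by 0.26 ± 0.36, in 13 of 16 pellets, and by 0.20 without ASP shSCR replicate 1.

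The arginine and lysine transporter Slc7a1 passed the test for a lower share on polysomes in ASP shSCR alone. Whether ASP shSCR differed from the other conditions is a separate test, given with the comparisons of conditions. Its log2 ratios in pellets 1 to 4 were -0.97, -1.12, -0.33 and -0.07 in ASP shSCR, -0.27, -0.35, 0.19 and 0.02 in NoASP shSCR, 0.06, -0.55, -0.34 and 0.16 in ASP shGRIN2D, and -0.0004, -0.57, -0.26 and -0.03 in ASP shDHPS. The low ASP shSCR values came from pellets 1 and 2, and the other 2 lay within the range of the remaining conditions. The fitted log2 ratio of Slc7a1 was -0.62 in ASP shSCR (SE 0.19, adjusted p = 0.00900), -0.10 in NoASP shSCR (adjusted p = 0.702), -0.17 in ASP shGRIN2D (adjusted p = 0.515) and -0.21 in ASP shDHPS (adjusted p = 0.385; all edgeR). The ASP shSCR call of Slc7a1 was lost without replicate 2 (log2 -0.50, adjusted p = 0.0536) or with no term for the pellet (log2 -0.54, adjusted p = 0.120), and held at -0.57 without replicate 1.

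The glycine transporter Slc6a9 was higher in polysomal RNA in both knockdown conditions. Its log2 ratios were -0.09, -0.15, 0.48 and 0.18 in ASP shSCR, 0.30, 0.28, 0.27 and 0.63 in NoASP shSCR, 1.18, 0.55, 0.07 and 0.56 in ASP shGRIN2D, and 1.42, 0.44, 0.42 and 0.27 in ASP shDHPS. Slc6a9 was below 0 in 2 of 16 pellets, both of ASP shSCR, and the highest values were those of replicate 1 of each knockdown. The fitted log2 ratio of Slc6a9 was 0.59 in ASP shGRIN2D (SE 0.20, adjusted p = 0.0152) and 0.63 in ASP shDHPS (SE 0.20, adjusted p = 0.00975), against 0.11 in ASP shSCR (SE 0.19, adjusted p = 0.715) and 0.37 in NoASP shSCR (SE 0.19, adjusted p = 0.127; all edgeR). Both calls of Slc6a9 were lost without replicate 1 of the condition, at 0.38 in each (adjusted p = 0.182 in ASP shGRIN2D and 0.154 in ASP shDHPS), and that in ASP shGRIN2D also without replicate 2 (log2 0.56, adjusted p = 0.0539). With no term for the pellet the log2 ratios of Slc6a9 were 0.61 in both knockdown conditions (adjusted p = 0.0600 and 0.0576).

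The question of the study was whether aspartate, through GRIN2D and DHPS, changes which mRNAs are translated, so the ratio of each member was compared between ASP shSCR and the other 3 conditions. These comparisons share the ASP shSCR pellets. No member passed the test in any of them, and of all genes 0% passed for NoASP shSCR, 0% for ASP shGRIN2D and 0.208% for ASP shDHPS (edgeR, adjusted p below 0.05). At an unadjusted p below 0.05 there were 0, 0 and 1 members, and 1.93%, 3.22% and 13.6% of all genes. The median difference over the members, ASP shSCR minus the other condition, was -0.144, -0.157 and -0.392 on the log2 scale, and over all genes -0.016, -0.013 and 0.0125. Leaving out ASP shSCR replicate 1 gave member medians of -0.220, -0.272 and -0.441. Leaving out its replicate 2 gave a member median of -0.197 against ASP shDHPS.

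By gene, the widest difference of ASP shSCR from NoASP shSCR was that of Slc7a1 (log2 -0.52, SE 0.26, 95% interval -1.06 to 0.02, adjusted p = 1). Against ASP shDHPS the ratio of Slc7a11 differed by 0.53 (SE 0.25, 95% interval 0.019 to 1.047, adjusted p = 0.345), the only member difference from ASP shSCR with an unadjusted p below 0.05, at 0.0426. Among the other pairs of conditions, the ratio of Slc7a11 differed by 0.67 between ASP shGRIN2D and ASP shDHPS (SE 0.25, adjusted p = 0.566). The differences from ASP shDHPS were -0.39 for Slc7a5 (95% interval -0.895 to 0.11), -0.45 for Slc3a2 (-1.156 to 0.246), -0.51 for Slc1a5 (-1.205 to 0.19) and -0.53 for Slc6a9, none of which passed the test. With each pellet left out in turn, they ran from -0.51 to -0.26 for Slc7a5 and from -0.65 to -0.20 for Slc3a2. The ranges were -0.67 to -0.26 for Slc1a5 and -0.65 to -0.27 for Slc6a9. The fitted ratios of Slc7a11 and Slc38a2 were lowest in ASP shDHPS, whereas those of Slc1a4, Slc1a5, Slc3a2, Slc7a5 and Slc6a9 were highest there. The plot of ratio differences gives the values of all counted members with their intervals. Of the members, 0 of 9 had pellet ratios that did not overlap between ASP shSCR and another condition, against 1.76%, 1.92% and 6.86% of all genes. DESeq2, run as an alternative, called no member in these or in the level comparisons. Without ASP shSCR replicate 1 no member passed the test either, with a lowest adjusted p of 0.273 in the comparison with ASP shDHPS.

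**Figure D3:**
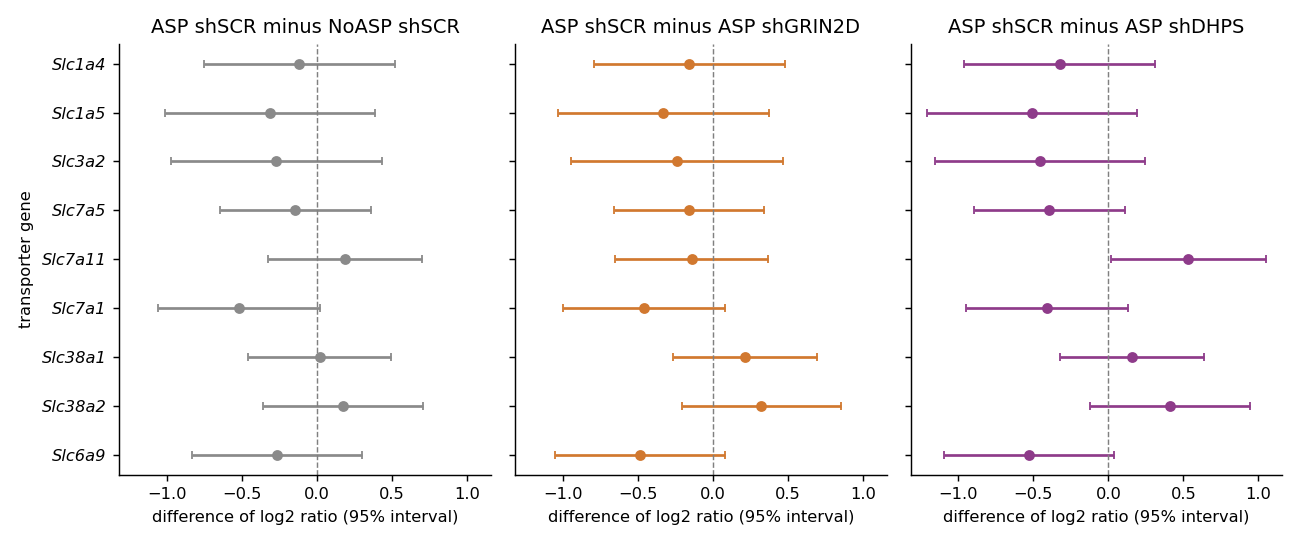
Difference of the log2 polysomal to sub-polysomal ratio, ASP shSCR minus each other condition (x axis), for each counted member (y axis), with the fitted value as a point and its 95% interval as a line. Every interval includes 0 apart from that of Slc7a11 against ASP shDHPS, which runs from 0.019 to 1.047.

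Levels within each fraction were then compared between conditions. In sub-polysomal RNA no member passed the test, and of all genes 0% passed for NoASP shSCR, 0.315% for ASP shGRIN2D and 1.41% for ASP shDHPS. In polysomal RNA no member passed either, with 0%, 0.0169% and 0.169% of all genes (all edgeR, adjusted p below 0.05). At an unadjusted p below 0.05 there were 0, 2 and 3 members in sub-polysomal RNA, against 4.91%, 11% and 16% of all genes, and 0, 1 and 1 members in polysomal RNA, against 7.75%, 9.06% and 16.4%.

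The largest sub-polysomal differences of members were with the Dhps knockdown. Slc7a11 stood at 64.4, 61.5, 105 and 105 CPM in ASP shSCR and at 104, 100, 126 and 113 CPM in ASP shDHPS, a log2 difference of -0.40 (SE 0.18, adjusted p = 0.261). Slc38a2 differed by -0.39 (SE 0.18, adjusted p = 0.288) and Slc1a5 by -0.36 (SE 0.17, adjusted p = 0.295). Slc7a1, at 67.5, 49.9, 71.5 and 58.4 CPM in ASP shSCR and 77.6, 85.1, 73.0 and 78.8 CPM in ASP shDHPS, was the 1 member of 9 whose pellets did not overlap, against 9.39% of all genes. For the other sub-polysomal comparisons with ASP shSCR no member was free of overlap, against 3.26% of all genes for NoASP shSCR and 5.5% for ASP shGRIN2D. For Slc7a1 the log2 difference was -0.35 (adjusted p = 0.363). Against ASP shGRIN2D, Slc7a5 differed by 0.34 (SE 0.16, adjusted p = 0.432) and Slc38a1 by -0.33 (adjusted p = 0.430). In all of these the pellets of the groups overlapped, apart from Slc7a1. Without ASP shSCR replicate 1 the differences from ASP shDHPS were -0.29 for Slc7a11, -0.33 for Slc38a2, -0.37 for Slc1a5 and -0.39 for Slc7a1, and none passed the test (edgeR, adjusted p = 0.505, 0.475, 0.393 and 0.404).

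On polysomes the widest member differences were those of Slc6a9 and Slc1a5. The polysomal level of Slc6a9 was 69.7, 49.9, 99.7 and 85.5 CPM in ASP shSCR, 70.5, 58.1, 75.3 and 117 CPM in NoASP shSCR, 170, 73.9, 104 and 156 CPM in ASP shGRIN2D, and 139, 88.5, 120 and 115 CPM in ASP shDHPS. The difference of Slc6a9 from ASP shGRIN2D was -0.73 on the log2 scale (SE 0.28, adjusted p = 0.391) and that from ASP shDHPS was -0.60 (SE 0.28, adjusted p = 0.288). Slc1a5 differed from ASP shDHPS by -0.73 (adjusted p = 0.384) and Slc7a1 by -0.64 (adjusted p = 0.314). The Slc6a9 differences were -0.68 and -0.57 without ASP shSCR replicate 1, and those from ASP shDHPS were then -0.86 for Slc1a5 and -0.62 for Slc7a1, and none of these passed the test (edgeR, adjusted p from 0.390 to 0.947). The pellets overlapped for every member in the polysomal comparisons with ASP shSCR, whereas 1.4% of all genes did not overlap for NoASP shSCR, 2.68% for ASP shGRIN2D and 6.31% for ASP shDHPS. Among the pairs of conditions without ASP shSCR, Slc1a5 had the lowest p, with a lower sub-polysomal level in ASP shGRIN2D than in ASP shDHPS (log2 -0.54, SE 0.17, adjusted p = 0.180) and no overlap of pellets. A term for the replicate number changed whether this Slc1a5 difference passed the test, as given with the processing below. Slc7a11 did not overlap either in that comparison (log2 -0.33, adjusted p = 0.529), in which 0.726% of all genes passed the test and 6.6% had pellets that did not overlap. In polysomal RNA, Slc7a5 was the 1 member without overlap among these pairs, between NoASP shSCR and ASP shDHPS (log2 -0.50, SE 0.22, adjusted p = 0.349), against 9.57% of all genes.

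**Figure D4:**
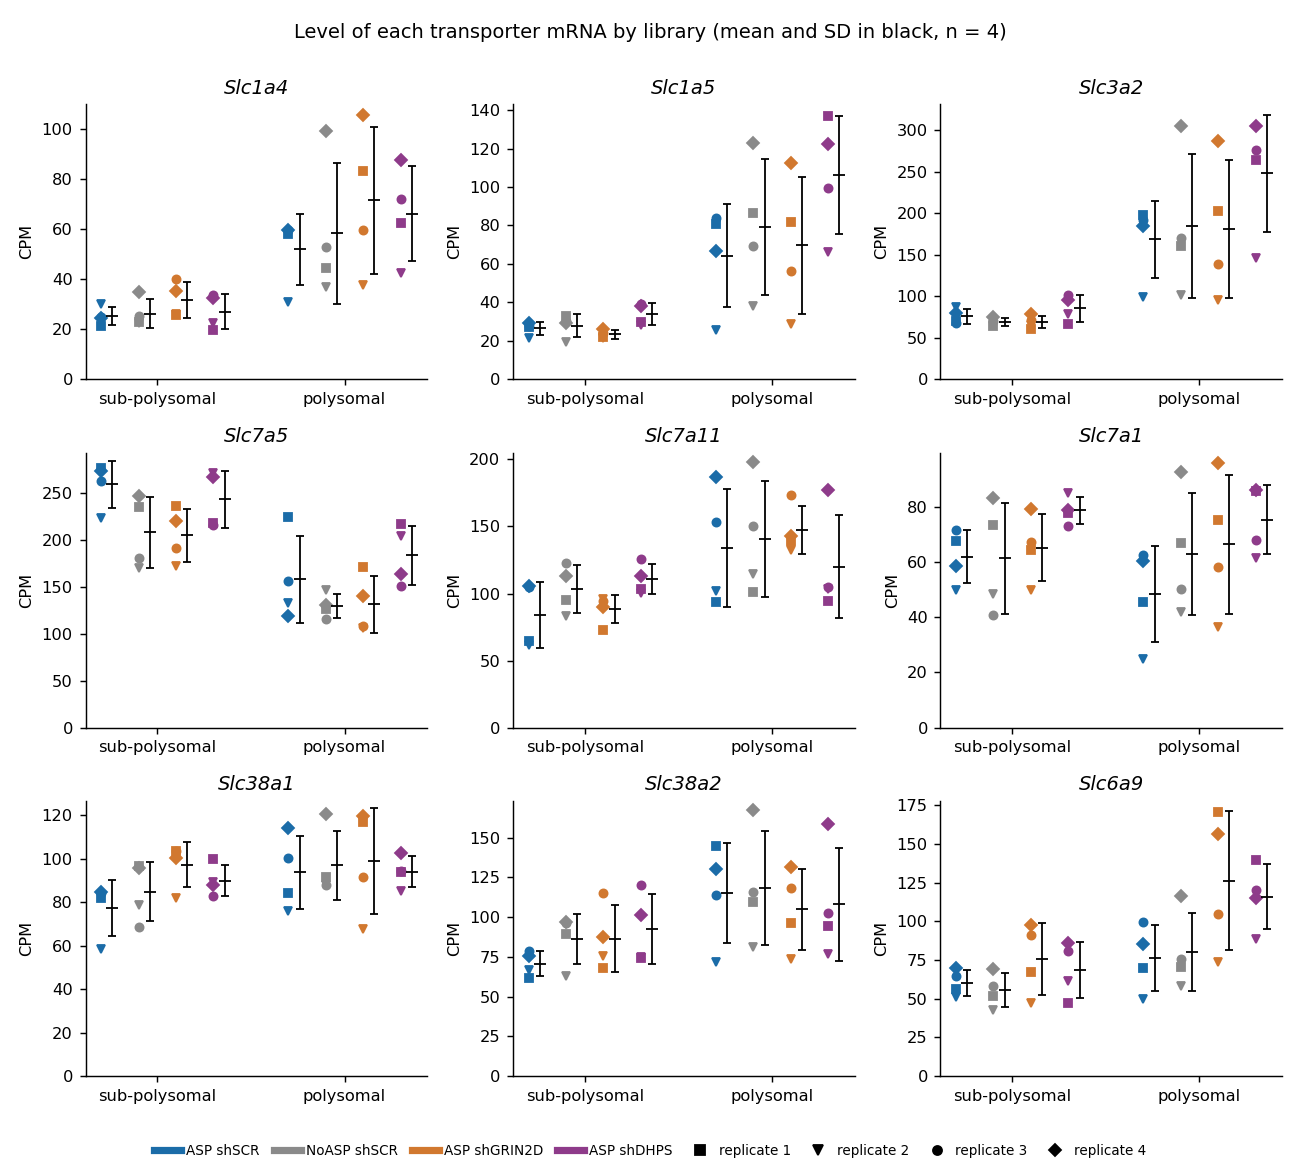
Level of each counted member in CPM (y axis, TMM-scaled within a fraction) by condition, with a point per pellet and the mean ± SD of 4 pellets, for sub-polysomal and polysomal RNA. Slc1a4, Slc1a5 and Slc3a2 lie higher and spread wider in polysomal than in sub-polysomal RNA, Slc7a5 lies lower there, and within a fraction ASP shSCR overlaps each other condition for every member but Slc7a1 against ASP shDHPS in sub-polysomal RNA.

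The median correlation between members over the pellets was higher in polysomal than in sub-polysomal RNA. Over the 16 pellets, the median Pearson correlation among the 36 member pairs was 0.679 for polysomal levels, with 34 pairs above 0, and 0.303 for sub-polysomal levels and 0.221 for ratios. Over all pairs of the 10909 genes with a mean of at least 50 counts, the medians were -0.0079, -0.0033 and -0.0097 in the same order. The medians were 0.726, 0.344 and 0.265 without ASP shSCR replicate 1. Some pairs went the other way, such as Slc1a5 and Slc7a11 at 0.18 in polysomal and 0.68 in sub-polysomal RNA. Slc1a5 and Slc3a2 had the highest polysomal correlation, 0.95, and Slc1a4 and Slc3a2 reached 0.91. For the ratios, Slc1a5 and Slc3a2 gave 0.96 and Slc1a4 and Slc3a2 gave 0.94, whereas Slc3a2 and Slc7a5 gave 0.03. The lowest polysomal value, -0.54, was that of the 2 light chain genes Slc7a5 and Slc7a11. These correlations describe 16 pellets that share 4 conditions and differ in depth and in place on the fraction axis, and carry no test.

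Part of this common variation followed the pellets numbered 2. In polysomal RNA, 6 members, Slc1a4, Slc1a5, Slc3a2, Slc7a1, Slc38a2 and Slc6a9, had their lowest level of the condition in replicate 2 in all 4 conditions, as did 12.1% of the 10909 genes with a mean of at least 50 counts. For the ratio the same was true of Slc1a4, Slc1a5, Slc3a2 and Slc7a1 and of 4.94% of those genes, and in sub-polysomal RNA of Slc1a5 and 1.84%. No member did so for any other replicate number. The polysomal libraries of replicate 2 also lay low on the fraction axis given above, and the part of this in the member values was not tested.

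**Figure D5:**
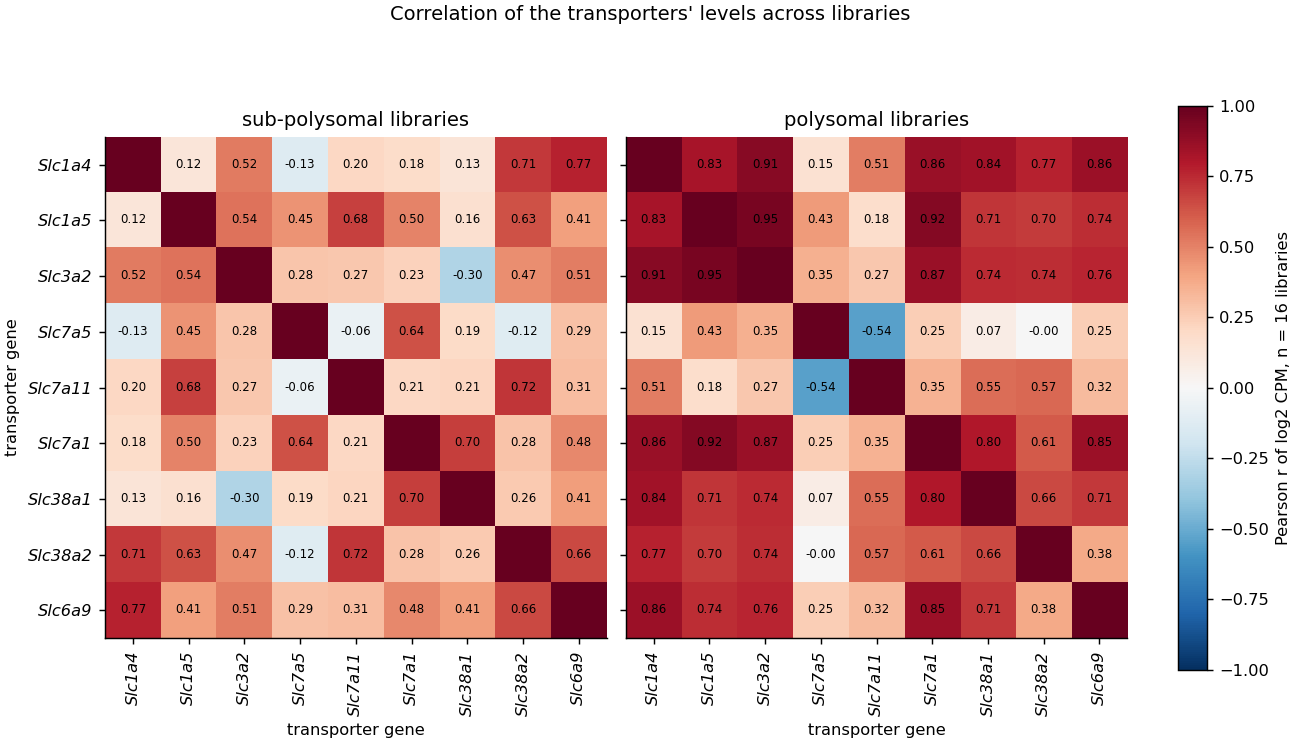
Pearson correlation over 16 pellets between each pair of counted members (colour, -1 to 1, with the value in each cell), for log2 levels in sub-polysomal and in polysomal RNA. The median is higher in polysomal RNA (0.679 against 0.303), with values up to 0.95 for Slc1a5 and Slc3a2, and the row of Slc7a5 is the palest there, down to -0.54 with Slc7a11.

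For the 3 members with the widest range of condition means in sub-polysomal RNA, the genes with the most similar sub-polysomal levels were looked up among 10779 genes over the 16 pellets. Slc1a5 was followed most closely by Mcm3 (Pearson r of 0.88), a subunit of the replicative helicase, then Gart (0.87), an enzyme of purine synthesis, and Plrg1 (0.86), a splicing factor. Slc7a11 was followed by the deacetylase Sirt1 (0.95), the importin Kpna4 (0.93) and Wdr75 (0.93), and Slc7a1 by Kirrel (0.90), Nploc4 (0.87) and Bicd2 (0.87). For each member these are the 3 highest of 10779 values, so high values were selected, and they carry no test.

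Other amino acid transporters gave a background for the members. Of 33 listed genes, 12 were counted, and Slc1a2, Slc1a7, Slc3a1, Slc6a19 and Slc7a3 had a mean under 5 counts. Between conditions, 1 passed the test: Slc43a2, a transporter of large neutral amino acids like Slc7a5 but without a heavy chain, stood in sub-polysomal RNA at 54.5, 89.6, 47.1 and 59.5 CPM in ASP shSCR and at 29.7, 33.7, 28.0 and 38.4 CPM in ASP shDHPS. The groups did not overlap, as was true of 9.39% of all genes. The log2 difference of Slc43a2 was 0.95 (SE 0.19, edgeR, adjusted p = 0.00814), in a comparison that 1.41% of all genes passed. This call was lost without ASP shSCR replicate 2 (log2 0.73, adjusted p = 0.0574) and held at 1.01 without replicate 1. Between fractions, Slc7a6, another partner of Slc3a2, was higher in polysomal RNA in all 4 conditions (log2 0.60 in ASP shSCR, 0.57 in NoASP shSCR, 0.66 in ASP shGRIN2D and 0.85 in ASP shDHPS), and the proton-coupled transporter Slc36a1 was lower in all 4 (-0.87, -0.65, -0.63 and -0.47). The taurine transporter Slc6a6, with the highest mean count of the list, was higher in 3 conditions. Slc6a6 also passed the test in ASP shSCR once replicate 1 was left out (log2 0.53, edgeR, adjusted p = 0.0433). In all, 1 listed gene was higher and 1 lower in ASP shSCR, 2 and 1 in NoASP shSCR, 2 and 1 in ASP shGRIN2D, and 4 and 2 in ASP shDHPS. For ASP shSCR without its replicate 1, 2 listed genes were higher and 1 lower. Across all genes tested, 18.9% to 23.7% were called in each direction and condition.

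The amino acid response genes, which share ATF4 as a known regulator with several members, fell on both sides as the members did. Of 20 genes, 8 were higher and 6 lower in polysomal RNA in ASP shSCR, 10 and 7 in NoASP shSCR, 9 and 6 in ASP shGRIN2D, and 10 and 4 in ASP shDHPS. The ASP shSCR counts were 6 and 7 without its replicate 1. Over all genes, 18.9% to 23.7% were called in each direction and condition, so calls on both sides are the general pattern. The enzymes Cth (log2 1.96, 2.28, 2.10 and 1.81) and Asns (1.38, 1.49, 1.76 and 1.64) were among the higher, and the transcription factors Atf4 (-1.17, -1.38, -1.49 and -1.23) and Atf5 (-1.32, -1.29, -1.53 and -0.98) and the translation inhibitor Eif4ebp1 (-1.17, -1.49, -1.50 and -1.22) among the lower, all of which passed the test in each condition. In the comparisons of ASP shSCR with the other conditions, 2 of the 20 passed the test, both higher in the sub-polysomal RNA of ASP shSCR than of ASP shDHPS: Ddit4, an inhibitor of mTORC1 signalling, by 1.12 (SE 0.28, adjusted p = 0.0380) and the transcription factor Cebpb by 0.71 (SE 0.19, adjusted p = 0.0469). Of all genes, 1.41% passed there. Without ASP shSCR replicate 2 the difference was 0.49 for Ddit4 (adjusted p = 0.364) and 0.54 for Cebpb (adjusted p = 0.232), and both calls were also lost without other pellets. Among the remaining pairs of conditions Chac1, which breaks down glutathione, passed the test, with a sub-polysomal level lower in NoASP shSCR (log2 -0.79, SE 0.17, adjusted p = 0.0320) and in ASP shGRIN2D (log2 -0.75, SE 0.17, adjusted p = 0.0272) than in ASP shDHPS. Each call of Chac1 was lost on leaving out any pellet of its conditions but replicate 3 of NoASP shSCR or of ASP shGRIN2D (edgeR, adjusted p from 0.0610 to 0.200).

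The 10 genes of the NRF2 oxidative stress response, which Slc7a11 is often counted among, gave 4 higher and 2 lower in polysomal RNA in each of the first 3 conditions and 5 and 2 in ASP shDHPS. The shares over all genes were 18.9% to 23.7% in each direction and condition. Nqo1, a quinone reductase, had log2 ratios of 1.96, 1.87, 2.04 and 1.96 and the haem transporter Slc48a1 of -1.10, -1.69, -1.66 and -1.21. In the outlying ASP shSCR replicate 1 the polysomal level of Slc48a1 was 1252 CPM, against 128 to 158 CPM in the other ASP shSCR pellets, and without it the ASP shSCR log2 ratio was -1.80. Hmox1, which breaks down haem, was the 1 gene of the 10 that passed a test between conditions, with a sub-polysomal level lower in ASP shSCR than in ASP shDHPS (log2 -1.14, SE 0.26, edgeR, adjusted p = 0.0209), a call lost without ASP shSCR replicate 1 (adjusted p = 0.0607) or 2 (adjusted p = 0.0614) or ASP shDHPS replicate 3 (adjusted p = 0.0886) or 4 (adjusted p = 0.0904). In the same comparison 4 of the 8 epithelial markers, Krt8, Krt18, Krt19 and Krt7, passed the test as higher in ASP shSCR, against 1.41% of all genes in either direction, and Krt7 also did against ASP shGRIN2D. NoASP shSCR was likewise higher than ASP shDHPS for Krt19 (log2 0.80, adjusted p = 0.0445) and Krt7 (log2 0.78, adjusted p = 0.0414) and higher than ASP shGRIN2D for Krt7 (log2 0.89, adjusted p = 0.0137), calls that were each lost without some of the pellets. The call of Krt8 (adjusted p = 0.0490) was lost without ASP shSCR replicate 1 (adjusted p = 0.0698) or 2 (adjusted p = 0.247) or any ASP shDHPS pellet, and that of Krt18 (adjusted p = 0.0320) without ASP shSCR replicate 2 (adjusted p = 0.232) or any ASP shDHPS pellet, whereas those of Krt19 and Krt7 against ASP shDHPS held without each pellet in turn. The part of these shifts in the member values was not tested.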

How the data were processed

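Polysomal and sub-polysomal RNA of 16 spheroid pellets was sequenced as stranded, paired-end libraries after cycloheximide treatment. Per the labels and the study's methods, the authors trimmed reads with Trim Galore (0.6.6), checked them with FastQC (0.11.9), aligned them to GRCm39 with STAR (2.6.1), estimated expression with Salmon (1.4.0), rounded the estimates to whole numbers and dropped genes without counts in 3 or more replicates of some group. The strand setting of the counting was not given in the sources used here, so reads of genes that overlap Slc7a5, Slc7a11 and Slc6a9 may not be fully separated. The deposited values used here are these raw counts per gene. The other deposited tables hold the authors' own fold changes, p-values, gene set scores and gene sets and were not used.

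Counts were scaled by TMM and tested with edgeR (4.0.16, R 4.3.3) by the quasi-likelihood test, two-sided, with Benjamini-Hochberg adjustment over all 17757 genes and a threshold of 0.05. The ratio model held a coefficient for each pellet and, for each condition, a log2 ratio of the fractions, over all 32 libraries. Levels were tested in the 16 libraries of each fraction with condition as the only term. Per-pellet ratios used a prior count of 2. Depth ranged from 12870563 to 25639437 counts per library. The pellets are separate spheroid cultures of 1 cell line, so p-values measure the spread between such cultures. The main edgeR tests were run on simulated counts with known changes in the polysomal RNA of ASP shSCR, for the contrast with ASP shDHPS. The simulated counts held no pellet effect and no outlying library, and the alternatives were not simulated. Alternatives were a prior count of 0.5, DESeq2 size factors, the DESeq2 (1.42.0) Wald test, edgeR's filter on low counts, only the 2 conditions compared, fits with and without replicate terms, and each pellet left out in turn. No 2 libraries held the same profile.

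All members were described. From the other lists (other amino acid transporters, amino acid response, NRF2 targets, epithelial, hormone receptor, blood and endothelial markers) the genes named were up to 3 per direction and comparison with the largest change past the threshold and a mean of at least 50 counts, the 3 with the highest mean, the shRNA targets and, for the 3 members with the widest range of sub-polysomal condition means, the 3 genes with the highest Pearson r. Markers at low counts were named after their values were seen. Members and lists were chosen with earlier results of these data known. Gene lengths came from GENCODE vM21 on GRCm38, which is not the build of the counts.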

Additional observations from a re-analysis of the deposited data

Results flagged for a closer look

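In 108 groups of 4 values (9 members, 4 conditions, and the polysomal level, the sub-polysomal level and the log2 ratio), 10 held a highest or lowest value far from the other 3, where chance gives about 1 in 20. ASP shSCR replicate 2 accounted for 4 of them: the polysomal level of Slc1a4 was 30.7 CPM against 58.2 to 59.7 CPM in the other pellets, the polysomal level of Slc3a2 was 99.3 CPM against 185 to 198 CPM, the sub-polysomal level of Slc38a1 was 58.4 CPM against 82.1 to 84.6 CPM, and the log2 ratio of Slc1a4 was -0.081 against 1.04 to 1.16. In NoASP shSCR replicate 4, the polysomal level of Slc38a1 was 121 CPM against 87.8 to 91.7 CPM, and the log2 ratio was 0.66 against 0.15 to 0.21 for Slc38a2 and 0.63 against 0.27 to 0.30 for Slc6a9. In ASP shGRIN2D replicate 2 the sub-polysomal level of Slc38a1 was 81.8 CPM against 100.2 to 103.7 CPM. In ASP shDHPS, the log2 ratio of Slc6a9 in replicate 1 was 1.42 against 0.27 to 0.44, and the polysomal level of Slc7a11 in replicate 4 was 177 CPM against 94.8 to 105 CPM.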

How the results depend on the processing

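Slc1a4, Slc1a5 and Slc3a2 stayed higher in polysomal RNA, and past the threshold, in every condition and alternative run. Slc7a5 stayed lower in all of them, and past the threshold in all but ASP shDHPS without replicate 3 (log2 -0.51) or 4 (log2 -0.44). No member was called between ASP shSCR and another condition in 1080 member fits under the alternatives, with a lowest adjusted p of 0.0506. No called value changed sign. DESeq2 size factors moved the median polysomal to sub-polysomal ratio of all genes to -0.123 in ASP shSCR and -0.125 in ASP shDHPS, from -0.044 and -0.090. With 4 pellets a condition, a member ratio difference of 0.53 on the log2 scale (Slc7a11, ASP shSCR against ASP shDHPS) did not pass the test. The causes of the changes below were not tested.

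The count of genes whose ratio differed between ASP shSCR and ASP shDHPS was 37, and became 0 with DESeq2 size factors, 626 with the Wald test, 188 with the filter on low counts, and 0 with only the 2 conditions. The sub-polysomal count with the Wald test was 1 for NoASP shSCR (from 0), 224 for ASP shGRIN2D (from 56) and 651 for ASP shDHPS (from 251). The polysomal count was 1 with the Wald test for NoASP shSCR (from 0). For ASP shGRIN2D (from 3) it was 7 with size factors, 73 with the Wald test and 0 with only the 2 conditions. For ASP shDHPS (from 30) it was 554 with the Wald test, 18 with the filter and 1 with only the 2 conditions. Of the other transporters, the Wald test called 2 in place of 1, adding Slc7a7.

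Leaving out a pellet gave 0 to 83 genes for the ratio against ASP shDHPS (0 without ASP shSCR replicate 4 or ASP shDHPS replicate 1, 3 or 4), 23 to 62 for the sub-polysomal level against ASP shGRIN2D, 80 to 370 against ASP shDHPS (80 without ASP shSCR replicate 2), 0 to 98 and 0 to 304 for the polysomal level against the same conditions, and 0 to 1 other transporters called.

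The labels do not pair pellets of different conditions, and the main fits held no term for the replicate number. Samples with the same number nevertheless deviated together in part. Their correlation was over 0.1 in 13 of 24 pairs for ratios, 16 of 24 for polysomal and 19 of 24 for sub-polysomal levels. Of 16, 8, 11 and 13 correlated best with their own number. Median correlations between samples of the same number were 0.125, 0.273 and 0.206 in the same order, against -0.030, -0.087 and -0.081 between different numbers. The main level tests leave this shared variation in the spread. A replicate block for the number moved the ratio count against ASP shDHPS to 231, the sub-polysomal counts to 195 for ASP shGRIN2D and 758 for ASP shDHPS, the polysomal counts to 27 and 405, and the other transporters called to 2. It gave 1 member call in the other pairs of conditions, Slc1a5 lower in sub-polysomal RNA in ASP shGRIN2D than in ASP shDHPS (log2 -0.53, edgeR, adjusted p = 0.0454). With no replicate block for the pellet, the ratio count against ASP shDHPS was 0 and 4 members were called between fractions in ASP shSCR in place of 7.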
